A study of Mus musculus with 19 samples.

Results

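The Hsd3b genes encode 3-beta-hydroxysteroid dehydrogenases and related 3-ketosteroid reductases, and in the mouse they lie side by side on chromosome 3. The description here covers 9 genes of that cluster, of 54146 listed in each RNA file: Hsd3b1, Hsd3b2, Hsd3b3, Hsd3b4, Hsd3b5, the predicted copies Gm4450 and Gm10681, the pseudogene Gm19210, and Hao2, a neighbour that is no Hsd3b copy. The genes were chosen with their values in these libraries known, both between the groups and between control replicate 1 and the other controls, so their levels are given as a description, with no test.

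Polyadenylated RNA was sequenced from whole kidneys of B6C3F1/J mice at 3 weeks of age, postnatal day 21. The KspCre DKO group held 2 libraries from mice with floxed Dnmt3a and Dnmt3b, which encode the de novo DNA methyltransferases, and a Cre recombinase driven by Ksp-cadherin, a gene of tubule epithelial cells. The control group held 3 libraries from mice with the same floxed genes, for which the labels name no Cre. All 5 libraries therefore share the floxed alleles, and a whole KspCre DKO kidney mixes cells in which that driver is active with cells in which it is not. Whether the libraries within a group are from different animals is not stated, so the spread may be technical. The other 14 of the 19 samples are bisulfite libraries and are not analysed here.

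Values are TPM, a level per transcript length that is scaled to 1 fixed total in every library, so the sequencing depth is unknown. KspCre DKO replicate 2 had 14710 genes above 0, against 18488 to 20510 in the other 4 libraries, and 31.0% of its TPM came from mitochondrially encoded genes, against 18.2% to 23.2%. Dnmt3a stood at 9.98 and 14.15 TPM in KspCre DKO kidneys and at 13.2, 18.97 and 15.49 TPM in controls, and Dnmt3b at 2.29 and 3.25 TPM in KspCre DKO kidneys and at 1.82, 2.86 and 1.98 TPM in controls. The groups overlapped for both genes, so their TPM cannot serve to check the labels.

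Enzymes of this family act on the oxygen at carbon 3 of the steroid ring. The dehydrogenase/isomerase members turn pregnenolone into progesterone and its relatives, a step needed for every class of active steroid hormone, while the ketosteroid reductase members work on already active steroids and are linked to their inactivation. In the mouse Hsd3b1 is the form of adrenal gland and gonads, Hsd3b2 and Hsd3b3 are forms of kidney and liver, Hsd3b4 is a reductase of kidney, Hsd3b5 a reductase of the male liver, and Hsd3b6 a form of adrenal zona glomerulosa, skin and placenta. Hao2 encodes a peroxisomal oxidase of hydroxy acids that is abundant in kidney.

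The 9 genes span 450.0 kb of chromosome 3 in assembly GRCm38.p6. From the lowest position upwards they are Gm4450 (chr3:98445675-98457517), Gm19210 (chr3:98469491-98473206), Hsd3b4 (chr3:98499071-98510579), Gm10681 (chr3:98552542-98564050), Hsd3b5 (chr3:98618636-98645534), Hsd3b2 (chr3:98711107-98724543), Hsd3b3 (chr3:98741476-98764540), Hsd3b1 (chr3:98842356-98859794) and Hao2 (chr3:98874519-98895376). Hsd3b4 and Gm10681 have the same annotated length, 11509 bases, and RefSeq lists the name Hsd3b4 as a synonym of Gm10681. Positions were matched by symbol, so those of Hsd3b4 and Gm10681 could be exchanged relative to the Ensembl identifiers. Gm4450 is annotated over 11843 bases.

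RefSeq promoter windows, 250 bases before to 50 after an annotated start, were at hand for 8 of the 9 genes; all 8 lie on the minus strand. The windows of the 3 copies with the highest levels are shown because they are nearly the same sequence. Capitals mark the 4 positions at which Gm4450 (chr3:98457077-98457376) and the first start of Hsd3b4 (chr3:98510518-98510817) differ, and the same positions where the window of Gm10681 (chr3:98563960-98564259) covers them. Each window is written 5′ to 3′ on the gene's strand.
Gm4450: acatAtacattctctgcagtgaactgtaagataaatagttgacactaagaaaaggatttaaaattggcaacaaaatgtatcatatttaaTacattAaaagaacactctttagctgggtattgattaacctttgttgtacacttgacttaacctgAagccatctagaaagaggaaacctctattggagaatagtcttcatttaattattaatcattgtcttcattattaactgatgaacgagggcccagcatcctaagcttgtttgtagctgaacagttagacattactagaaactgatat
Hsd3b4: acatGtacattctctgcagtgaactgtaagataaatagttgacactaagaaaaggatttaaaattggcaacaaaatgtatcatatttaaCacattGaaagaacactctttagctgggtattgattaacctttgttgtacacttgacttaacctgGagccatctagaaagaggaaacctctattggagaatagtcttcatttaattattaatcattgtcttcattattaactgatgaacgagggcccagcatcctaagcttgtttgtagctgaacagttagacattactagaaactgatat
Gm10681: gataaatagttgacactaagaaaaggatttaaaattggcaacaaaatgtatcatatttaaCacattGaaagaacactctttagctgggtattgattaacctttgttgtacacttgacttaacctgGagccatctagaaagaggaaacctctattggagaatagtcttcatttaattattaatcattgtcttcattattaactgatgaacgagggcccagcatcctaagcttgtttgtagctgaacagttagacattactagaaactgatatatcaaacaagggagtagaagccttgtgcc
Over all 300 bases the Gm4450 and Hsd3b4 windows were identical at 296. Counted from 1 at the 5′ end of the Hsd3b4 window, with the Hsd3b4 base first and the Gm4450 base second, the differences are G5A, C90T, G96A and G155A. Over the 271 bases that the annotated starts let them share, Hsd3b4 and Gm10681 were identical at 271. How reads that match several copies were divided is not given, and transcript sequences were not examined here. Each single value of Hsd3b4, Gm10681 and Gm4450 is therefore uncertain.

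The window of Hsd3b2 (chr3:98724494-98724793), the copy whose level differed most upwards between the groups, is shown for contrast, with its CpG in capitals.
Hsd3b2: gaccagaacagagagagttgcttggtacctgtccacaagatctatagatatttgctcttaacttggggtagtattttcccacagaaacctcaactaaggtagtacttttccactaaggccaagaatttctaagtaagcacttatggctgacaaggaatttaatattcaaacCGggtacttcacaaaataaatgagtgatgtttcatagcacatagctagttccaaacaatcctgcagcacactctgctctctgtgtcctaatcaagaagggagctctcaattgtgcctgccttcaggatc
Its best local alignment to the Hsd3b4 window covered 18 columns, and outside the 3 near-identical copies no window of the cluster genes aligned to that of Hsd3b4 over more than 41. Hsd3b5 and Hsd3b3 aligned over 252 columns with 75.8% identity at the first Hsd3b3 start. CpG, the dinucleotide that DNA methyltransferases act on, was sparse: the Hsd3b3 windows held 0, those of Gm4450, Hsd3b4, Gm10681, Hsd3b5 and Hsd3b2 held 1 each, and those of Hsd3b1 and Hao2 held 2. The median over 32851 mouse promoter windows was 7, and 23.3% of windows held at most 2. Of 3 motifs searched on both strands, GTTAAT, a core of sites for the factor HNF1, was in the windows of Gm4450, Hsd3b4, Gm10681 and Hao2 (7.1% of all windows). TATAAA was only in the window of the second Hsd3b4 start (13.6% of all windows), where it lies after that start. The windows of Gm4450, Gm10681 and the first Hsd3b4 start end before that stretch, so they cannot be compared there. CAAAGTCCA, a form of HNF4 site, was only in the windows of Hsd3b3 (0.475% of all windows). No matches of different motifs overlapped in these windows.

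In the listed TPM, the copies that made up the cluster's messenger RNA were different ones in the groups. The sum over the 9 genes overlapped between the groups. Without Hao2, the sum of the Hsd3b copies was lower in both KspCre DKO libraries than in every control. Gm4450 and Hsd3b2 made up most of the cluster's TPM in both KspCre DKO libraries, Hsd3b4 and Gm10681 in all 3 control libraries. Control replicate 1 held a mixture of both sets. Hsd3b4, Gm10681 and Gm4450, whose single values are uncertain, held 77.4% and 82.0% of the TPM of the Hsd3b copies in KspCre DKO kidneys. In controls they held 91.5%, 98.4% and 98.7%. How reads were divided among them is not given, so the difference in copies carries that uncertainty for them. Hsd3b2 is not among them by its promoter window, but transcripts were not compared, so whether it shares reads with other copies is unknown. The share of Hsd3b2 was 20.1% and 15.7% in KspCre DKO kidneys, against 6.71%, 0.424% and 0.405% in controls.

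The sum over the 9 genes was 1047 and 777 TPM in KspCre DKO kidneys and 1077, 1038 and 1079 TPM in control kidneys. The low value is that of KspCre DKO replicate 2, and the value of KspCre DKO replicate 1 lies inside the control range. The mean difference of log2(sum + 1) was −0.24, KspCre DKO minus control, against a median difference of −0.14 over all tested genes. It was −0.45 with KspCre DKO replicate 1 left out and −0.02 with replicate 2 left out. The median over all tested genes moved likewise, to −0.39 and 0.13. Over the 8 Hsd3b copies without Hao2 the sum was 846 and 688 TPM in KspCre DKO kidneys, against 888, 917 and 925 TPM in controls, with no overlap. The near-identical copies Hsd3b4, Gm10681 and Gm4450 together gave 655 and 564 TPM in KspCre DKO kidneys and 813, 903 and 913 TPM in controls, a log2 difference of −0.52. In bulk tissue, fewer cells of a type and less RNA per cell cannot be told apart.

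**Figure D1:**
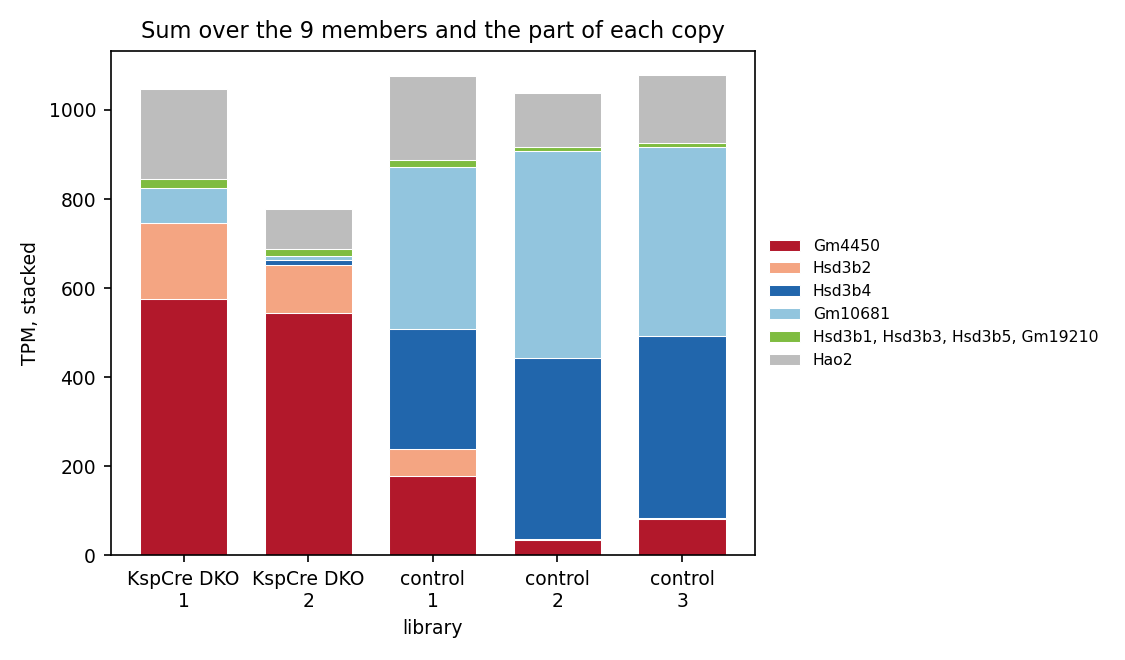
Stacked TPM of the 9 genes (vertical axis) in each of the 5 libraries (horizontal axis, 1 bar per library, KspCre DKO left). The bars reach 777 to 1079 TPM, the red parts (Gm4450 and Hsd3b2) fill most of the KspCre DKO bars, and the blue parts (Hsd3b4 and Gm10681) most of the control bars.

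Hsd3b4, the kidney ketosteroid reductase (ENSMUSG00000095143.5), was listed at 0 and stood at 10.12 TPM in KspCre DKO kidneys, against 269.63, 406.79 and 407.98 TPM in controls. Its groups lay far apart, and control replicate 1 was the lowest control. The log2 difference was −6.74 on the log2(TPM + 1) scale and −8.46 with a pseudocount of 0.1, since with a value listed at 0 its size depends on the pseudocount. Gm10681 (ENSMUSG00000095388.7), whose promoter window is identical where it could be compared, stood at 78.14 and 10.12 TPM in KspCre DKO kidneys and at 364.82, 462.68 and 423.87 TPM in controls. Again both KspCre DKO libraries were below every control, with control replicate 1 the lowest of the 3. Its log2 difference was −3.81, with −5.23 with KspCre DKO replicate 1 left out and −2.39 with replicate 2 left out. In KspCre DKO replicate 2 the listed values of Hsd3b4 and Gm10681 were the same, and the ratio of Hsd3b4 to Gm10681 in the controls was 0.739, 0.879 and 0.963. Together the pair gave 78.1 and 20.2 TPM in KspCre DKO kidneys, against 634, 869 and 832 TPM in controls.

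Gm4450 (ENSMUSG00000090817.7) went the other way, at 576.41 and 544.17 TPM in KspCre DKO kidneys and 178.2, 33.35 and 80.84 TPM in controls. The KspCre DKO libraries were close to each other and far above every control, while the controls spread widely. Its log2 difference was 2.82, with 3.40 without control replicate 1 and 2.21 without control replicate 2. The Ensembl files treat it as a gene of its own, and no enzymatic role is assigned to it here. As a share of the TPM of the 8 Hsd3b copies, Gm4450 held 68.2% and 79.1% in KspCre DKO kidneys and 20.1%, 3.64% and 8.74% in controls. Hsd3b4 and Gm10681 together held 9.24% and 2.94% in KspCre DKO kidneys and 71.5%, 94.8% and 89.9% in controls. These shares do not depend on how the libraries are scaled, but they carry the uncertainty of dividing reads between copies.

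Hsd3b2 (ENSMUSG00000063730.13), a dehydrogenase/isomerase form of kidney, stood at 170.27 and 108.08 TPM in KspCre DKO kidneys, against 59.6, 3.89 and 3.75 TPM in controls. Control replicates 2 and 3 were almost without it, and control replicate 1 lay between them and the KspCre DKO libraries. Its log2 difference was 3.61, with 4.83 without control replicate 1 and 3.01 and 2.99 without control replicates 2 and 3. Its share of the copies' TPM was 20.1% and 15.7% in KspCre DKO kidneys, against 6.71%, 0.424% and 0.405% in controls. Gm4450 and Hsd3b2 together gave 747 and 652 TPM in KspCre DKO kidneys, against 238, 37.2 and 84.6 TPM in controls.

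Hsd3b3 (ENSMUSG00000062410.14), the other dehydrogenase/isomerase form of kidney and liver, was lower in level and steadier: 15.97 and 12.16 TPM in KspCre DKO kidneys, and 6.47, 6.55 and 6.0 TPM in controls. The groups did not overlap, and here control replicate 1 was like the other controls. The log2 difference was 1.03. Hsd3b5 (ENSMUSG00000038092.6), the reductase known from the male liver, was near the bottom of the range at 3.32 and 3.67 TPM in KspCre DKO kidneys, against 0.09, 0.62 and 0.57 TPM in controls, a log2 difference of 1.68. Control replicate 1 was the lowest library for Hsd3b5. The pseudogene Gm19210 (ENSMUSG00000106129.1), which lies between Gm4450 and Hsd3b4, was at 0.3 and 0 TPM in KspCre DKO kidneys and at 1.7, 3.19 and 1.82 TPM in controls, a log2 difference of −1.48. At such levels the log2 difference follows the pseudocount: with 5 in place of 1 it was 0.65 for Hsd3b5 and −0.49 for Gm19210.

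Hsd3b1 (ENSMUSG00000027871.16), the adrenal and gonadal form, stood at 1.28 and 0 TPM in KspCre DKO kidneys, against 7.2, 0 and 0 TPM in controls. Only control replicate 1 and KspCre DKO replicate 1 were above 0, and the groups overlapped. Its log2 difference was −0.42, and it turned to 0.59 without control replicate 1 and to 0.18 without KspCre DKO replicate 2. Hao2 (ENSMUSG00000027870.8), the hydroxy acid oxidase at the end of the cluster, stood at 201.0 and 88.86 TPM in KspCre DKO kidneys and at 189.4, 120.87 and 154.06 TPM in controls. The KspCre DKO values enclosed all 3 control values, and the log2 difference of −0.19 turned to 0.40 without KspCre DKO replicate 2 and to 0.01 with quantile normalization.

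**Figure D2:**
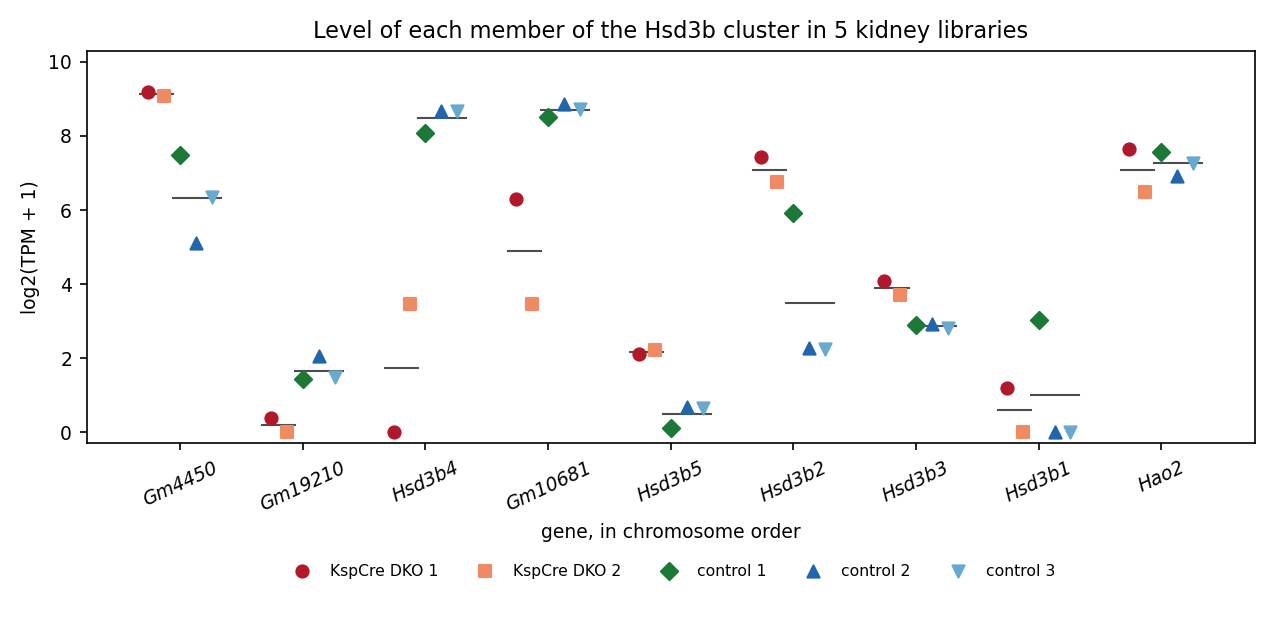
Level of each gene, as log2(TPM + 1), with 1 symbol per library and genes in chromosome order; KspCre DKO libraries stand left of the controls and the short lines are group means of these log2 values. Hsd3b4 and Gm10681 are low and Gm4450 and Hsd3b2 high in both KspCre DKO libraries, and the green diamond of control replicate 1 lies between the KspCre DKO libraries and the other controls for these 4 genes.

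All 9 genes had a mean of at least 1 TPM and so were among the 13963 genes of the fit across all genes; Hsd3b5 and Gm19210 reached that mean through the group in which they are higher, and Hsd3b1 through control replicate 1, without which its mean was 0.32 TPM. The libraries of the groups did not overlap for 7 of the 9, with 4 higher in both KspCre DKO libraries and 3 lower. Among all tested genes 26.1% did not overlap, 10.5% higher and 15.6% lower, and a separation with a difference of at least 2 log2 units was seen in 1.15%. As the genes were chosen from these values, nothing is read from that count. The order of the mean levels, which TPM allow between genes, was Gm4450 (560 ± 22.8 TPM), Hao2 (145 ± 79.3), Hsd3b2 (139 ± 44.0), Gm10681 (44.1 ± 48.1), Hsd3b3 (14.1 ± 2.69), Hsd3b4 (5.06 ± 7.16), Hsd3b5 (3.50 ± 0.247), Hsd3b1 (0.64 ± 0.905) and Gm19210 (0.15 ± 0.212) in KspCre DKO kidneys (SD, n = 2). In controls it was Gm10681 (417 ± 49.3 TPM), Hsd3b4 (361 ± 79.5), Hao2 (155 ± 34.3), Gm4450 (97.5 ± 73.8), Hsd3b2 (22.4 ± 32.2), Hsd3b3 (6.34 ± 0.297), Hsd3b1 (2.40 ± 4.16), Gm19210 (2.24 ± 0.828) and Hsd3b5 (0.427 ± 0.293) (SD, n = 3). In KspCre DKO kidneys the means of Hao2 and Hsd3b2, Gm10681 and Hsd3b3, Hsd3b4 and Hsd3b5, and Hsd3b1 and Gm19210, neighbours in that order, differed by less than the larger SD of the pair. In controls this held for Gm10681 and Hsd3b4, Hao2 and Gm4450, Hsd3b2 and Hsd3b3, Hsd3b3 and Hsd3b1, and Hsd3b1 and Gm19210.

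**Figure D3:**
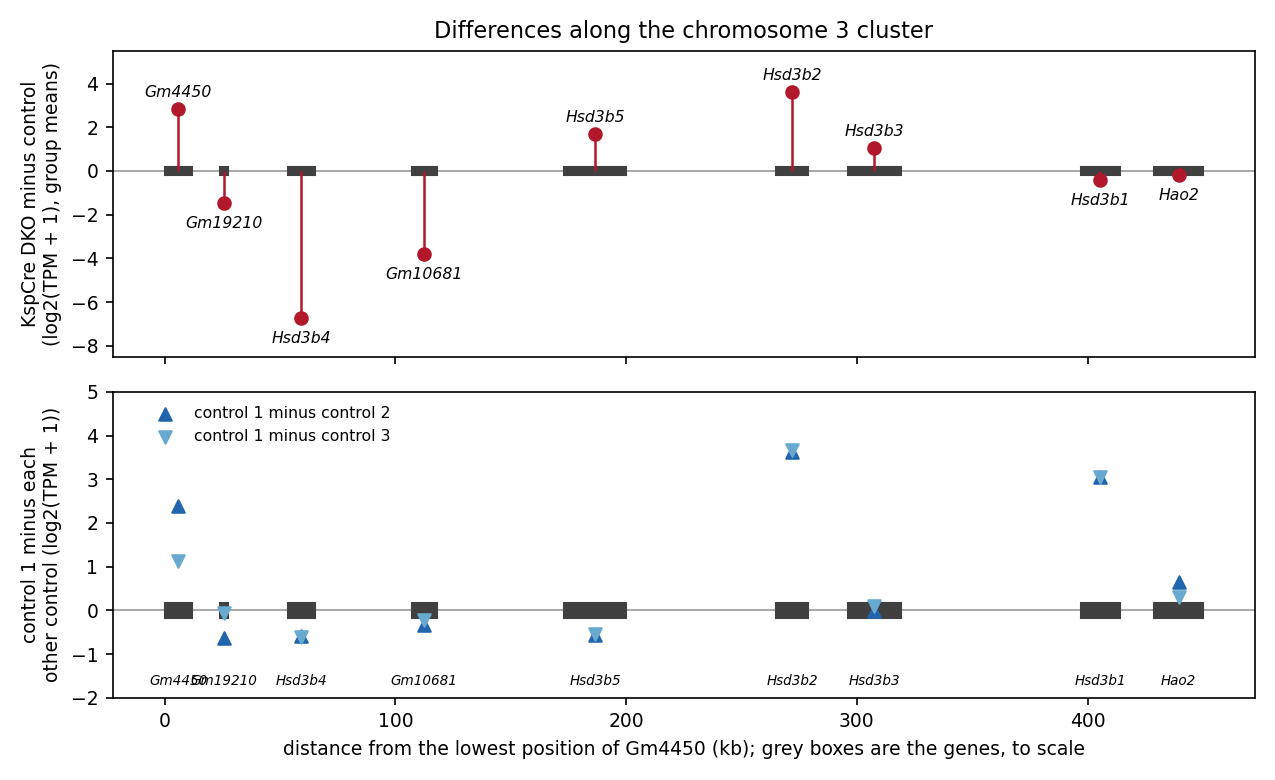
Position of each gene on the horizontal axis (kb from the lowest position of Gm4450, boxes to scale) and, above, the difference of group means of log2(TPM + 1), KspCre DKO minus control; below, control replicate 1 minus each other control on the same scale. The lower genes (Gm19210, Hsd3b4, Gm10681) lie together, with Gm4450, which is higher, on one side and Hsd3b5, Hsd3b2 and Hsd3b3, also higher, on the other, and control replicate 1 is furthest above the other controls at Hsd3b2 and Hsd3b1.

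In the listed TPM, control replicate 1 stood apart from the other controls in which copies it held, not in their sum. The sum of the 9 genes was 1077 TPM in control replicate 1, against 1038 and 1079 TPM in control replicates 2 and 3. Hsd3b2 was 3.63 and 3.67 log2 units above control replicates 2 and 3, Hsd3b1 3.04 above each, and Gm4450 2.38 and 1.13 above them. Hsd3b4 was lower by 0.59 and 0.60 log2 units, and Gm10681 by 0.34 and 0.22. Hsd3b3 did not follow, at −0.02 and 0.09. The pair Hsd3b4 and Gm10681 held 71.5% of the copies' TPM in control replicate 1, against 94.8% and 89.9% in control replicates 2 and 3.

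At least 2 log2 units above both other controls were 2 of the 9 genes, Hsd3b2 and Hsd3b1, and 0.38% of all tested genes. Hsd3b1 passed the minimum mean only through its level in control replicate 1 and so had to be counted there. For 5 of the 9, Hsd3b2, Gm4450, Hsd3b4, Gm10681 and Gm19210, control replicate 1 lay between both KspCre DKO libraries and both other controls, as it did for 12.1% of all tested genes. This difference was part of how the genes were chosen and was not tested. With control replicate 1 left out, the log2 differences between the groups were −6.94 for Hsd3b4, −3.90 for Gm10681, 3.40 for Gm4450, 4.83 for Hsd3b2, 1.04 for Hsd3b3, 1.49 for Hsd3b5 and −1.59 for Gm19210.

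Markers of the adrenal cortex, the gland that lies on the kidney and makes steroid hormones, were mostly highest, like Hsd3b1, in control replicate 1. In the other libraries the markers differed among themselves. KspCre DKO replicate 1, next highest for Hsd3b1, was at 0 for Cyp21a1, Cyp11b1, Nr5a1 and Mrap. It was above KspCre DKO replicate 2 for Scarb1 (18.85 against 7.82 TPM), Fdx1 (60.64 against 22.49 TPM) and Akr1b7 (6.5 against 4.15 TPM). For Star it was below (1.0 against 3.89 TPM). Mrap, an accessory protein of the corticotropin receptor, stood at 0.38 and 1.84 TPM in control replicates 2 and 3, where Hsd3b1 was at 0. Cyp11a1, which makes pregnenolone from cholesterol, stood at 0.07 and 0 TPM in KspCre DKO kidneys and at 3.05, 0.29 and 0.22 TPM in controls. Cyp21a1, the steroid hydroxylase of the adrenal cortex, was at 0 and 0 TPM in KspCre DKO kidneys and at 3.63, 0 and 0.22 TPM in controls. Control replicate 1 was thus the library with most of both. The final enzyme of corticosterone synthesis, Cyp11b1, was listed at 0 in every library other than control replicate 1, where it had 1.76 TPM. Control replicate 1 was above both other controls for 11 of the 11 adrenal genes in the files, against 36.1% of the 22920 genes above 0 in any library, and it was the highest of all 5 libraries for 10, against 18.3%. Only 4 of the 11 reached a mean of 1 TPM, with control replicate 1 above both other controls for 4 (36.4% of all tested genes) and the highest library for 3 (15.6%). The summed level of the 11 was 87.1 and 38.4 TPM in KspCre DKO kidneys, and 119, 74.7 and 91.7 TPM in controls, most of it Fdx1 and Scarb1, which kidney also expresses. Both KspCre DKO libraries were at 0 for 6 of the 11, namely Cyp21a1, Cyp11b1, Cyp11b2, Nr5a1, Mrap and Hsd3b6. The part of adrenal RNA in the level of Hsd3b1 was not tested.

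**Figure D4:**
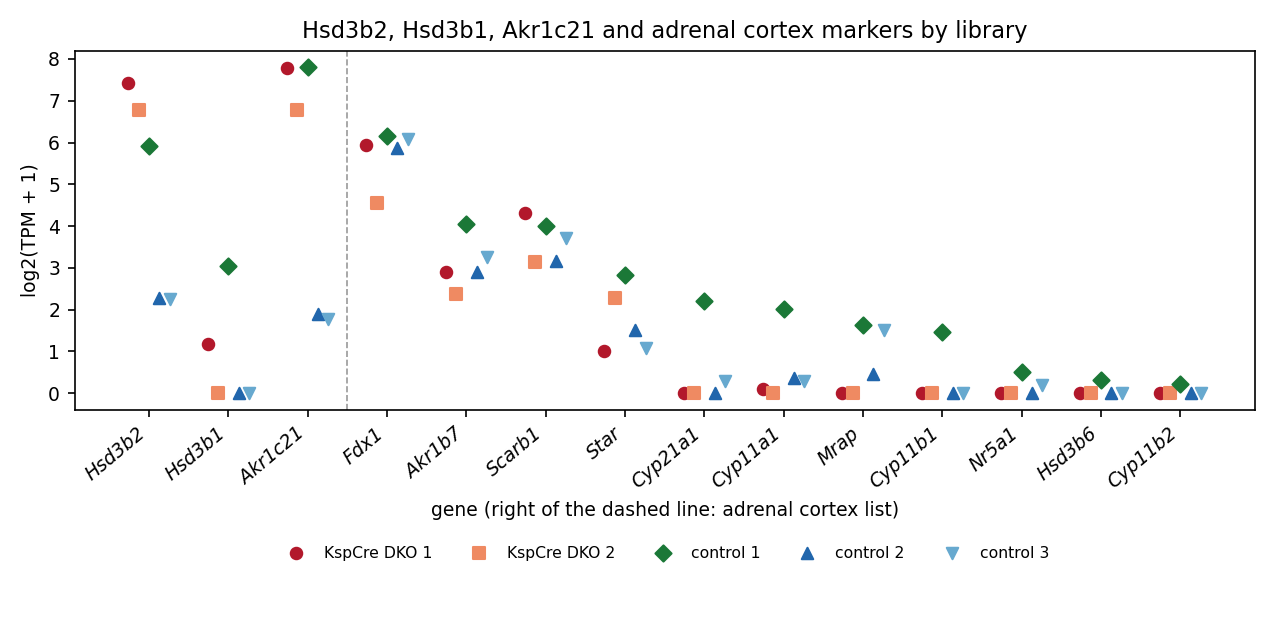
Levels, as log2(TPM + 1), of Hsd3b2, Hsd3b1 and Akr1c21 (left of the dashed line) and of 11 adrenal cortex genes (right) in each library. Control replicate 1 is the highest library for Hsd3b1, Cyp21a1, Cyp11a1 and Cyp11b1; for Hsd3b2 and Akr1c21 the KspCre DKO libraries are also high and control replicates 2 and 3 low.

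Transcripts of the Y chromosome, read because Hsd3b5 and others are known to differ by sex, were found in every library. Eif2s3y stood at 47.5 and 47.49 TPM in KspCre DKO kidneys, against 66.09, 74.45 and 49.69 TPM in controls. Ddx3y stood at 13.19 and 2.68 TPM in KspCre DKO kidneys, against 11.26, 9.4 and 8.97 TPM in controls. Uty and Kdm5d were also above 1 TPM in each library. Hepatocyte markers were low, with Alb at 3.55 and 0.86 TPM in KspCre DKO kidneys and 0.53, 0 and 0.38 TPM in controls. Apoc3 reached the highest level of them, at 16.63 and 45.43 TPM in KspCre DKO kidneys and 19.26, 5.8 and 0 TPM in controls. Over the 17 hepatocyte genes in the files, the summed level was 40.8 and 70.8 TPM in KspCre DKO kidneys and 47.2, 30.5 and 19.3 TPM in controls. The part of such RNA in the level of Hsd3b5 was not tested.

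Other genes of steroid metabolism lay on both sides of no difference. Of 29 tested genes outside it, 0 passed limma's test (adjusted p below 0.05), against 0.165% of all tested genes, and 2 had an unadjusted p below 0.05, against 1440 of all 13963. There were 12 higher and 17 lower, where of all tested genes 38.3% were higher and 61.7% lower, with a median log2 difference of −0.07, beside −0.14 for all tested genes. Akr1c21, an aldo-keto reductase of steroids in mouse kidney, was ordered much like Hsd3b2 among the controls, at 218.98 and 108.47 TPM in KspCre DKO kidneys and 222.92, 2.71 and 2.42 TPM in controls. Control replicates 2 and 3 were nearly without it while control replicate 1 was as high as KspCre DKO replicate 1. Its log2 difference was 3.45 ± 1.58 (SE; limma adjusted p = 0.505), and 2.49 and 2.43 without control replicates 2 and 3 (limma adjusted p = 0.776 and 0.998). Without control replicate 1 it was 5.45 (limma adjusted p = 7.92e-04). That control stands apart in these same values, so leaving it out narrows the control spread, and nothing is read from this p. Hsd17b11, a dehydrogenase of steroids and lipid droplets, stood at 128.41 and 58.7 TPM in KspCre DKO kidneys and 48.07, 31.3 and 33.61 TPM in controls (log2 difference 1.21 ± 0.38 SE, limma adjusted p = 0.324). That difference was 0.65 with KspCre DKO replicate 1 left out and 1.77 with replicate 2 left out. Hsd17b14, another member of that enzyme class, stood at 18.51 and 25.69 TPM in KspCre DKO kidneys and 31.26, 74.38 and 74.5 TPM in controls (−1.32 ± 0.42 SE, limma adjusted p = 0.328); control replicate 1 was the lowest control. Fdx1, the electron donor of mitochondrial steroid hydroxylases, stood at 60.64 and 22.49 TPM in KspCre DKO kidneys and 70.67, 57.73 and 67.37 TPM in controls (log2 difference −0.79, limma adjusted p = 0.548). The Fdx1 difference was −1.49 with KspCre DKO replicate 1 left out and −0.10 with replicate 2 left out.

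Within the Hsd3b family, Hsd3b7 (ENSMUSG00000042289.11) lies on chromosome 7 and acts in bile acid synthesis. It stood at 25.72 and 17.43 TPM in KspCre DKO kidneys and 26.29, 26.65 and 25.95 TPM in controls (log2 difference −0.30 ± 0.29 SE, limma adjusted p = 0.747). Hsd3b6, inside the cluster between Hsd3b3 and Hsd3b1, was at 0 and 0 TPM in KspCre DKO kidneys and at 0.25, 0 and 0 TPM in controls.

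Markers of the proximal tubule, the segment that reabsorbs most of the filtered solutes, were high in every library. Of 56 proximal tubule genes 53 stood above 5 TPM in each library; Lrp2, the endocytic receptor megalin, stood at 72.07 and 44.81 TPM in KspCre DKO kidneys and 73.23, 57.91 and 53.66 TPM in controls. Of the 56, 23 were higher and 33 lower, none passed limma's test over all genes (8 had an unadjusted p below 0.05, beside 1440 of all 13963), and the median log2 difference was −0.12. The lowest p-values belonged to Slc6a18, an amino acid transporter, at 181.21 and 182.02 TPM in KspCre DKO kidneys and 307.59, 577.55 and 364.45 TPM in controls (limma adjusted p = 0.246), and Slc7a13, a transporter of the late proximal tubule, at 12.87 and 32.77 TPM in KspCre DKO kidneys and 57.85, 49.19 and 71.24 TPM in controls (limma adjusted p = 0.253; log2 difference −0.82 with KspCre DKO replicate 1 left out and −2.11 with replicate 2 left out). Napsa, an aspartic protease, had a log2 difference of −0.68 (limma adjusted p = 0.304). The summed level of the list was 46357 and 40055 TPM in KspCre DKO kidneys, and 63712, 51076 and 53856 TPM in controls. The largest single part of it was Kap, the kidney androgen-regulated protein, singled out after its values were seen. Kap stood at 21775 and 26512 TPM in KspCre DKO kidneys and 40762, 30030 and 34021 TPM in controls. Without Kap the other 55 genes summed to 24582 and 13543 TPM in KspCre DKO kidneys and to 22950, 21046 and 19835 TPM in controls, so that KspCre DKO replicate 1 was the highest library and KspCre DKO replicate 2 the lowest.

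Peroxisomal oxidases and enzymes of hydroxy acids, the company of Hao2, had 11 of 24 tested genes higher and 13 lower, with a median log2 difference of −0.09 and 0 calls by limma (1 with an unadjusted p below 0.05, beside 1440 of all 13963). Paox, an oxidase of polyamines, stood at 10.4 and 6.31 TPM in KspCre DKO kidneys and 18.56, 14.28 and 13.62 TPM in controls (limma adjusted p = 0.425; log2 difference −1.16 with KspCre DKO replicate 1 left out and −0.52 with replicate 2 left out). Abcd3, Grhpr and Agxt2 had log2 differences of −0.85, −0.73 and −0.54 (limma adjusted p = 0.498, 0.59 and 0.613). These rested on KspCre DKO replicate 2: they were −0.24, −0.01 and −0.10 without it and −1.45, −1.46 and −0.97 without KspCre DKO replicate 1. Genes of other tubule segments are given only to place the cluster. All 11 tested thick ascending limb genes had a negative difference (median −1.05), as did 61.7% of all tested genes, with 0 calls by limma (6 with an unadjusted p below 0.05, beside 1440 of all 13963). Of 15 collecting duct and connecting tubule genes 6 were higher and 9 lower (median −0.20), with 0 calls by limma (7 with an unadjusted p below 0.05, beside 1440 of all 13963); Aqp2, the water channel of the collecting duct, had the smallest p of all lists, with a log2 difference of 2.0 ± 0.29 (SE; limma adjusted p = 0.0512). It passed the threshold under 7 of 13 alternatives, which gave limma adjusted p from 0.00575 to 0.356.

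**Figure D5:**
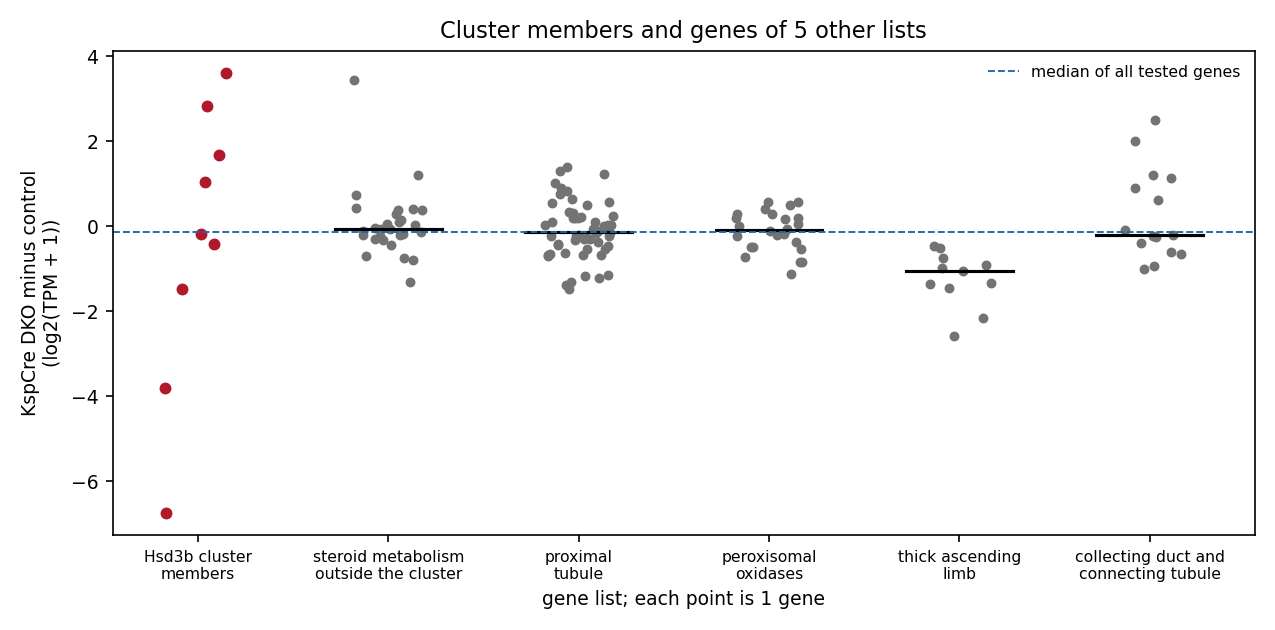
Difference of log2(TPM + 1), KspCre DKO minus control, for the 9 cluster genes (red) and the tested genes of 5 lists (grey; black lines are medians, the dashed line is the median of all tested genes, −0.14). Cluster genes range from −6.74 to 3.61, and Akr1c21 at 3.45 is the highest point of the steroid list.

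Genes beside the cluster were set next to it. RefSeq places 31 other genes with a start within 500000 bases of the 9, of which 22 were in the files and 5 were tested. None was called by limma, 1 had an unadjusted p below 0.05, and the log2 differences ran from −1.30 to 0.72. Zfp697, a zinc finger gene and the tested neighbour nearest to Gm4450, stood at 3.74 and 1.53 TPM in KspCre DKO kidneys and 6.57, 8.15 and 8.04 TPM in controls (−1.30 ± 0.38 SE, limma adjusted p = 0.278). The Zfp697 difference was −1.76 with KspCre DKO replicate 1 left out and −0.85 with replicate 2 left out. Phgdh, the first enzyme of serine synthesis, stood at 45.98 and 15.35 TPM in KspCre DKO kidneys and 21.81, 9.22 and 19.34 TPM in controls (limma adjusted p = 0.663). Notch2 had a log2 difference of 0.24 ± 0.35 (SE; limma adjusted p = 0.845).

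Many other genes correlated strongly with the cluster genes over the 5 libraries, so likeness over so few libraries says little. With log2(TPM + 1) of Hsd3b4, 69 tested genes outside the cluster had a Pearson correlation over 0.95 across the 5 libraries, led by Sema6c, Adcy5 and Hhatl (r of 0.9994, 0.9992 and 0.9949). With Hsd3b2 there were 128, led by Marcksl1-ps4, Mtf1 and Pde1a. For Gm4450 the number was 196 and for Gm10681 553, led by ENSMUSG00000024726.9 and by ENSMUSG00000024986.11, which the table of gene names does not annotate. For Hsd3b3 it was 216, with Epn3 and Syne2 among the first 3, for Hao2 673, led by Ppp2r5c, and for the sum of the 9 genes 1164. Their differences can be small: Sema6c stood at 1.76 and 2.66 TPM in KspCre DKO kidneys and 4.29, 4.57 and 4.72 TPM in controls. Pde1a stood at 33.98 and 28.44 TPM in KspCre DKO kidneys and 25.88, 12.86 and 13.71 TPM in controls. The points share their libraries and their depth, and the correlations are a description.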

How the data were processed

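Polyadenylated RNA of whole kidneys was extracted with the RNeasy mini kit and turned into libraries with TruSeq reagents from Illumina, per the labels' protocols. The deposited values are TPM per gene, made by the authors for each library separately. RSEM 1.3.1, STAR 2.2.1, Trim Galore 0.5.0 and build mm10 appear in the submitters' processing notes, without roles. Which annotation release was used, and how reads that match several copies were divided, is not given in the sources used here. Of 54146 gene identifiers 96.9% had a symbol. Positions and promoter windows come from RefSeq (GRCm38.p6), matched by symbol; windows were aligned locally with Biopython 1.88.

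The cluster genes and all lists were chosen with earlier results of these data known. limma 3.58.1 (R 4.3.3; empirical Bayes with trend, two-sided) was fitted on log2(TPM + 1) for the 13963 genes averaging 1 TPM or more, KspCre DKO minus control, with Benjamini-Hochberg adjustment over all of them and a threshold of 0.05. It was tested on simulated data. Differences of cluster genes are differences of group means on that scale, which understates changes of low genes. Named are the cluster genes, other Hsd3b genes, neighbours within 500000 bases with a mean of at least 5 TPM, the 4 genes of smallest p in a list, marker genes of the tissue check, and the 3 genes most like each cluster gene with a mean of at least 5 TPM; Cyp11a1, Cyp21a1, Cyp11b1 and Lrp2 were named after their values were seen. Some genes that this rule names are not reported here. Alternatives were other pseudocounts, filters and scalings, the replicate number as a term, and each library left out. TPM keep no depth, so no interval for counting error is given.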

Additional observations from a re-analysis of the deposited data

How the results depend on the processing

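The sum of the 9 genes (log2 difference −0.24) was 0.05 with quantile normalization and ran from −0.45 to −0.02 over refits that left out a library. Medians of all genes moved to −0.03 with quantile normalization and median-of-ratios scaling. They moved to −0.39 without KspCre DKO replicate 1 and to 0.13 without KspCre DKO replicate 2. The number of cluster genes at least 2 log2 units above both other controls in control replicate 1 was 1 with a pseudocount of 5, and 2 to 3 with another control left out. Calls over all genes were 14 higher and 9 lower. Higher calls were 7 with a pseudocount of 0.1, 28 with 5, 3 with no filter (and 1 lower), 23 with median-of-ratios scaling, 32 with quantile normalization and 26 without mitochondrially encoded genes. Leaving out a library gave 3 to 90 higher and 3 to 470 lower, both highest without KspCre DKO replicate 1, which leaves 1 library assumed to vary like the controls. With the replicate number as a block, which uses the numbers without evidence that they pair (correlations of deviations 0.09 and 0.03), there were 47 higher and 28 lower. Of the genes of the fixed lists, 0 were called, against 2 with a pseudocount of 5, 1 with a mean of at least 5 TPM, 1 with median-of-ratios scaling, 1 with quantile normalization (Aqp2 in each of these 4), 2 without mitochondrially encoded genes, 2 with the replicate block and 0 to 10 with a library left out. Refits without a library turned the direction of uncalled genes: Star (−0.80 to 0.49), Scarb1 (−0.48 to 0.69), Ddx3y (−1.56 to 0.39), Uty (−1.01 to 0.42), Kdm5d (−0.80 to 0.56), Notch2 (−0.12 to 0.60) and Phgdh (−0.04 to 1.48). For the cluster genes, 4 of 90 alternative values changed sign, all of Hsd3b1 and Hao2. The causes were not tested.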
